A study of Mus musculus with 36 samples.

Results

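NPC1, the first of a pair of populations labelled as progenitors, was compared with aNSC, the population labelled as activated stem cells. Both came fresh from a flow cytometry sort of homogenised subependymal zone (SEZ) tissue of C57BL/6 mice aged 8 weeks. NPC1 and aNSC had 4 libraries each, which makes 8 of the 36 libraries of the series. Every library column carrying one of these names entered, with 15861 of the 19909 genes of the table, namely those whose log2 value reached 0 in 3 or more libraries of either group. The labels name no treatment, transgene or genotype for either group. They say that replicates are biological, without saying whether each came from its own animal or a pool. The p-values therefore reflect library spread, which may not be the spread between single animals. Library spread was estimated over all 28 freshly sorted libraries of 8 populations, so populations other than NPC1 and aNSC also enter it. The sources used here do not give the gates that defined NPC1 and aNSC.

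In the adult SEZ, quiescent astrocyte-like stem cells become activated, start to divide and give rise to transit-amplifying progenitors, which in turn produce neuroblasts that migrate to the olfactory bulb and become mostly GABAergic interneurons. Signalling through the EGF receptor drives division of activated stem cells and progenitors. Notch receptors on contact with ligand release an intracellular fragment that joins the DNA-binding protein RBPJ and switches on repressors of neuronal genes such as Hes and Hey factors, which holds cells in a stem-like state, whereas Dlx homeobox factors promote the interneuron fate.

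Values are the deposited log2 levels, on a scale near log2 CPM (read counts scaled to a common library total), and every difference is NPC1 minus aNSC on that scale. The table's scaling fixes the distribution of every library, so total RNA per cell cannot be seen. Total reads were not given. As a sign of depth, the lowest value of a library held 617 to 777 genes in NPC1 and 780 to 1183 in aNSC. Each NPC1 library correlated with the others of its group at no less than 0.959 and each aNSC library at no less than 0.96, across genes, which are not independent replicates. A gene was called changed at a limma adjusted p under 0.05 (Benjamini-Hochberg over all genes tested). Because the kit does not mark strand, reads of a gene and of an annotated antisense model over it cannot be told apart. This touches, among others, Egfr, Hes5, Nrarp, Notch1, Sp9, Nrxn3, Tnfrsf19, Notum, Dlx6, Ccnd2 and Gramd1a.

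Libraries differed within their groups in how far they lay from the other group. Over the genes called without it, NPC1 replicate 1 lay farther from aNSC than the other 3 NPC1 libraries did: its level exceeded their mean by a median of 0.22 over 624 genes called higher, and its median difference was -0.25 over 745 genes called lower. aNSC replicate 1 lay nearer to NPC1 than the other 3 aNSC libraries did, with medians of 0.22 over 1000 genes called higher and -0.23 over 1058 called lower. NPC1 replicate 4 lay nearer to aNSC by as much, with medians of -0.24 over 1061 genes called higher and 0.24 over 1076 called lower. Leaving out NPC1 replicate 1 changed the count of calls most among single libraries, and leaving out NPC1 replicate 4 least. Results are therefore also given without NPC1 replicate 1, and where it matters without aNSC replicate 1.

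Between NPC1 and aNSC, 2296 genes changed, 14.5% of those tested. Of these, 1139 were higher (7.18% of genes tested) and 1157 lower (7.29%) in NPC1. Counts of called list members given below are to be read beside these shares. Among named genes with a mean of at least 5 and no overlap, neuroblast and Dlx transcripts made up most of the largest increases. In the same set, the growth factor receptor gene Egfr and astroglial and Wnt-related transcripts stood among the largest decreases. Few transcripts of replication and mitosis were called, although 34 of 42 S phase genes and 46 of 50 genes of G2 and mitosis had a positive difference. More of them were called when NPC1 and aNSC were fitted alone. Differences over 2-fold numbered 390 upwards and 505 downwards. The median difference over all genes tested was 0.02. The libraries of the groups did not overlap for 5145 genes (32.4%), with NPC1 above aNSC in 17.2% of genes tested and below it in 15.2%. Without NPC1 replicate 1 the count was 1369, without it and aNSC replicate 1 together 1231, without aNSC replicate 2 it was 1523 and without aNSC replicate 4 it was 1529. A fit of the NPC1 and aNSC libraries alone, rather than of all 28 freshly sorted libraries, called 5080 genes, 2661 higher and 2419 lower. At an unadjusted p under 0.05 in the main fit there were 4410 of the 15861 genes tested. List counts given below for these settings are to be read beside these numbers. In bulk libraries such as these, fewer cells of a type and less RNA per cell cannot be told apart.

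**Figure D1:**
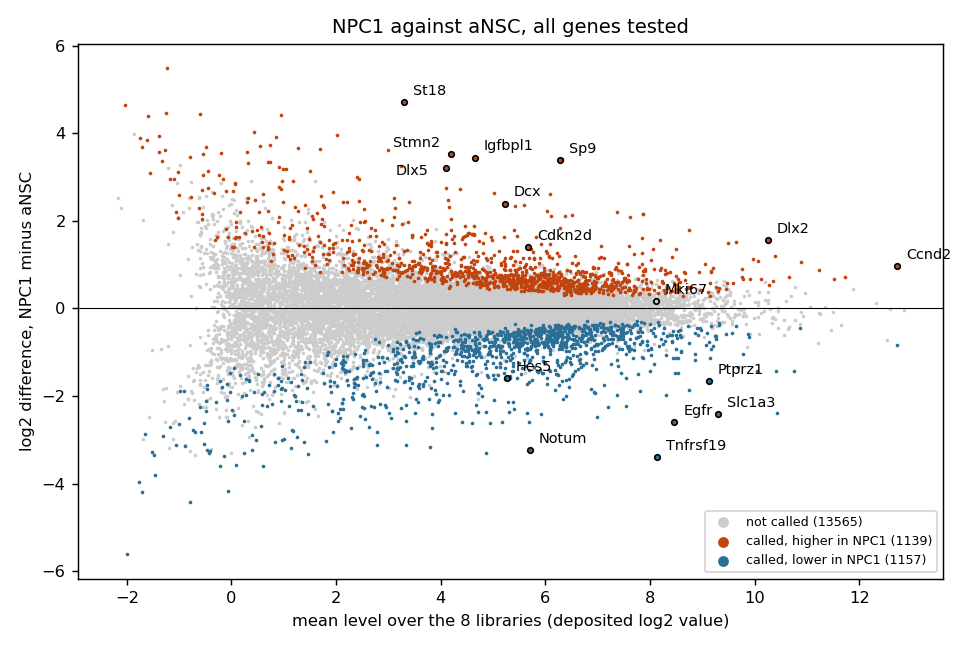
Log2 difference (NPC1 minus aNSC, vertical axis) against the mean log2 level over the 8 libraries (horizontal axis) for all 15861 genes tested. Orange points are the 1139 genes called higher and blue points the 1157 called lower in NPC1, grey points the rest. St18 lies highest among the labelled genes and Tnfrsf19 lowest, and Mki67 lies near 0.

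The surface antigens that are commonly used to sort these cells came first, since they bear on the labels. Egfr had 6.69, 7.32, 7.14 and 7.54 in NPC1 replicates 1 to 4, against 9.48, 9.88, 9.68 and 10 in aNSC replicates 1 to 4. The groups were far apart, and NPC1 was 6.01-fold lower (log2 -2.59 ± 0.197 SE, limma adjusted p = 6.75e-09). Slc1a3, the glutamate transporter GLAST of astrocytes and stem cells, had 7.34, 8.33, 8.32 and 8.37 in NPC1, against 9.87, 10.75, 10.58 and 10.81 in aNSC. The first replicate was the lowest in both groups, and NPC1 was 5.34-fold lower (log2 -2.42 ± 0.205 SE, limma adjusted p = 2.83e-08). Leaving out NPC1 replicate 1 gave -2.43 for Egfr and -2.17 for Slc1a3, both called.

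Of the 12 antigens listed, 10 could be tested. In NPC1, 6 of them fell and 2 rose. Vcam1, an adhesion molecule of niche stem cells, fell by 2.37 on the log2 scale and the tetraspanin gene Cd9 fell by 0.91. The integrin genes Itga6 and Itgb1 fell by 1.14 and 0.49. Ncam1, a neural adhesion molecule whose polysialylated form marks neuroblasts, rose by 1.23. Cd24a, a surface glycoprotein of neuroblasts, had 8.86 in NPC1 replicate 1 and 7.35 to 7.66 in the other NPC1 libraries, against 6.49 to 7.27 in aNSC. Its increase of 0.94 was close to the threshold (limma adjusted p = 0.0474, 0.00147 to 0.244 over the alternatives tried) and was not called without NPC1 replicate 1 or 2 or aNSC replicate 2, 3 or 4 (adjusted p = 0.244, 0.0664, 0.149, 0.0783 and 0.105). Prom1 (CD133) did not pass, at -0.47 (limma adjusted p = 0.104, 0.00631 to 0.253 over the alternatives tried), although every NPC1 library (5.06 to 5.3) lay below every aNSC library (5.45 to 5.84). It was called lower in the fit of NPC1 and aNSC alone (0.0107). Whether these antigens differ because cells were gated on them was not tested. Leaving out NPC1 replicate 1 or aNSC replicate 2 gave 4 lower and 1 higher.

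**Figure D2:**
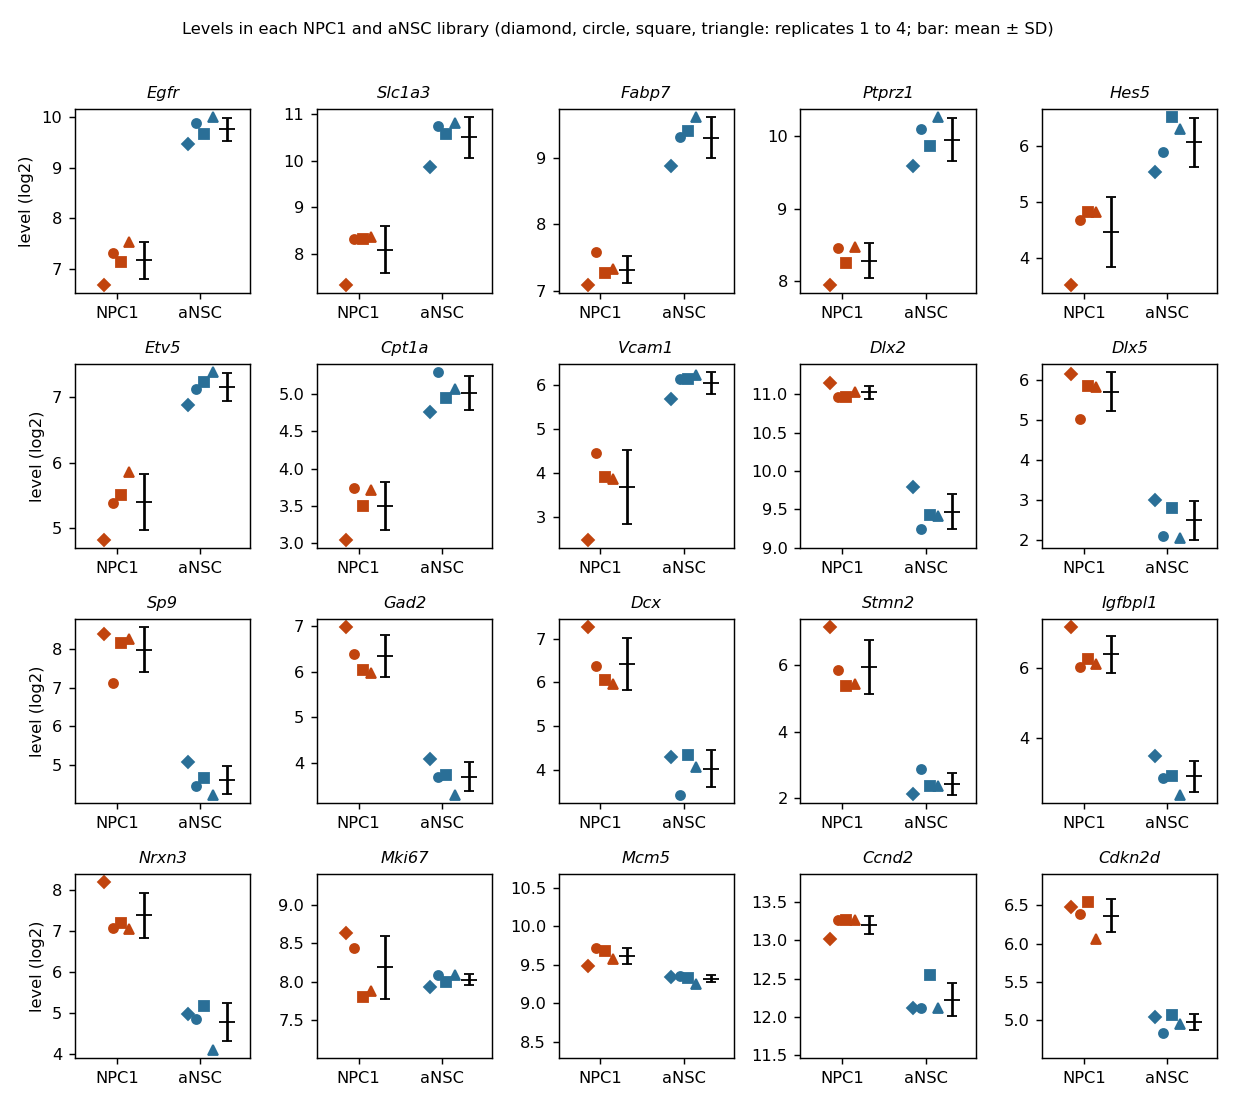
Log2 level of 20 genes in each NPC1 library (orange, left) and each aNSC library (blue, right), with the group mean ± SD (n = 4 each) as a black bar beside the points. NPC1 replicate 1 (diamond) is the lowest NPC1 library for Egfr, Slc1a3, Ptprz1 and Hes5 and the highest for Dcx, Stmn2, Igfbpl1 and Nrxn3, while the libraries of the groups overlap for Mki67.

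Astroglial genes fell as a group in NPC1. Of 32 tested, 16 were called lower and 2 higher, with a median difference of -1.04. Ndrg2, an astrocyte-enriched cytoplasmic protein gene, had 7.36, 7.86, 7.9 and 7.8 in NPC1, against 8.73, 9.39, 9.34 and 9.38 in aNSC (log2 -1.48 ± 0.127 SE, limma adjusted p = 2.83e-08). Here too the lowest library of each group was its replicate 1, and the groups did not overlap. The second astroglial glutamate transporter gene Slc1a2 fell by 1.59, the membrane protein gene Mlc1 by 1.94 and Ttyh1, a chloride channel gene, by 2.39. The neurotensin receptor gene Ntsr2 fell by 2.22 and Apoe, the main lipoprotein of astrocytes, by 1.35.

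The gap junction gene Gja1 (connexin 43) fell by 1.66, whereas its relative Gjb6 (connexin 30) was called higher, by 2.62, at low means of 1.92 in NPC1 and -0.7 in aNSC, where aNSC replicate 1 was at its floor. Clu, a secreted chaperone, was also called higher, by 1.28. In both genes the libraries of the groups overlapped. Gfap differed by -0.84 and Aldh1l1 by -1.51 without passing. Summed over the list, the linear level was 2340, 4280, 4100 and 4040 in NPC1, against 6190, 9620, 9170 and 10300 in aNSC. Replicate 1 was lowest in both groups, and every NPC1 library lay below every aNSC library. With NPC1 replicate 1 left out, 13 genes of the list were called lower and 3 higher. Neither Gjb6 nor Clu was called without NPC1 replicate 2, 3 or 4 or aNSC replicate 1 or 2, each of which left 0 higher by limma, as did the fit of NPC1 and aNSC alone, against 2 at an unadjusted p under 0.05.

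Regulators of the stem cell state were also mostly lower in NPC1. Of 29 tested, 15 were called lower and 3 higher (median -0.63). These were 11 lower and 3 higher without NPC1 replicate 1, and 11 and 1 without aNSC replicate 1 as well. Fabp7, a fatty acid binding protein of radial glia, had 7.09, 7.58, 7.26 and 7.32 in NPC1, against 8.88, 9.32, 9.4 and 9.61 in aNSC, which is 3.98-fold lower (limma adjusted p = 5.68e-06). The groups were separated by more than a log2 unit. Ptprz1, a receptor phosphatase of glial progenitors, fell by 1.67 and the nuclear receptor gene Nr2e1 (TLX), which adult stem cells need for self-renewal, by 1.24. Rfx4, a winged-helix factor, fell by 1.74 and Veph1 by 2.08.

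The SoxB1 gene Sox2 and the gliogenic Sox9 fell less, by 0.64 and 0.65. Prdm16 fell by 1.05, Nfia by 0.4 and the RNA-binding protein gene Msi2 by 0.63. Pax6 rose by 0.58, the intermediate filament gene Vim by 0.69 and Tcf4, an E protein partner of proneural factors, by 0.54. The paired gene Msi1 differed by 0.04 and the intermediate filament gene Nes, widely used to mark neural stem cells, by 0.04, and neither passed.

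Most measured Notch target genes were lower in NPC1. Of 6 tested, 5 were called lower (median -1.36). Hes5, a direct target that represses proneural genes, had 3.53, 4.69, 4.83 and 4.83 in NPC1, against 5.54, 5.89, 6.51 and 6.31 in aNSC. NPC1 replicate 1 was the lowest, and the groups did not overlap (log2 -1.59 ± 0.314 SE, limma adjusted p = 0.00105; without NPC1 replicate 1, -1.28 and 0.00822). Nrarp, a target that feeds back on the Notch complex, had 5.56, 5.92, 6.21 and 6.08 in NPC1, against 6.85, 6.81, 6.7 and 6.98 in aNSC (log2 -0.89 ± 0.176 SE, limma adjusted p = 0.00103). Every NPC1 library lay below every aNSC library.

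At lower levels, Hes1 fell by 2.53, Hey1 by 1.12 and Hey2 by 2.33. The sixth gene, Hes6, which antagonises Hes1 and is not a Notch target in the same sense, differed by -0.22. Without NPC1 replicate 1, Hes1 and Hey2 were no longer called (limma adjusted p = 0.0943 and 0.0529), which left 3 targets, and 2 were left when aNSC replicate 1 was left out as well. Hey2 was also not called without NPC1 replicate 2 (0.0523). Over the alternatives tried, the adjusted p ran from 0.000107 to 0.0954 for Hes1 and from 2.12e-05 to 0.0603 for Hey2.

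The promoters of 3 of these targets are shown because RBPJ, the factor that Notch works through, binds a known core. Those of Hes1 and Hey1, which also fell, were not among the promoter sequences at hand. Each line gives the 250 bases before the RefSeq start of the gene in GRCm38.p6, 5′ to 3′ on the gene's strand, with the core TGGGAA or its reverse complement TTCCCA in capitals. Hes5 lies on the plus strand at chr4:154960673-154960922, Nrarp on the plus strand at chr2:25180508-25180757 and Hey2 on the minus strand at chr10:30842784-30843033.
Hes5: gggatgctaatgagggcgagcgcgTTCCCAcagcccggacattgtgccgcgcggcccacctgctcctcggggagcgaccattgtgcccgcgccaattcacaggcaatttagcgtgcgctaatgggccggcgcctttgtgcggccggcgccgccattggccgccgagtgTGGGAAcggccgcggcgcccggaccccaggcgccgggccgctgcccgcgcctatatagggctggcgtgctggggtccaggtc
Nrarp: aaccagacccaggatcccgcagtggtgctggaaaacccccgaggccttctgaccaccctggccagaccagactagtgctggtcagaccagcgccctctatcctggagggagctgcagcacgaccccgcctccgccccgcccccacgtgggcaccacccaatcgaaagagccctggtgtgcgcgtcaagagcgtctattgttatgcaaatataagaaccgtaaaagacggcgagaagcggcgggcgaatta
Hey2: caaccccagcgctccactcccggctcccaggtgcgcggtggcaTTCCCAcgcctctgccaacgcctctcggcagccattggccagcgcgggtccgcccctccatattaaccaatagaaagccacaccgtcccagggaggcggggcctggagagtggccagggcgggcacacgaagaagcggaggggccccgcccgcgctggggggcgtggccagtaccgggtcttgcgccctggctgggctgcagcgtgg

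In the Hes5 promoter the core stood at -82 from the start on the gene's strand and at -226 on the other strand. The Hey2 promoter held 1 match, at -207 on the other strand, and the Nrarp window none. Of 32851 promoters of this length, 7094 (21.6%) held the core on either strand. These matches describe letters, and no match says only that the core is absent from this window.

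Among the receptors, Notch1 was called lower in NPC1 by 0.8 and Notch3 by 3.61, while Notch4 was called higher by 1.1 and Notch2 did not pass at -0.88. Notch1 had 5.6, 5.78, 6.19 and 6.36 in NPC1, against 6.98, 6.62, 6.46 and 7.07 in aNSC. These values nearly touch (limma adjusted p = 0.0445), and the call was lost without NPC1 replicate 1, 2 or 3 (0.157, 0.11 and 0.0546) and without aNSC replicate 1, 2 or 4 (0.103, 0.0676 and 0.134). Notch3 was at the floor in NPC1 replicate 1, and its difference was -2.63 without that library. Notch4 was not called without NPC1 replicate 1 (adjusted p = 0.0983).

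Of 12 ligands and modifiers, 3 fell and 1 rose, against 7.29% and 7.18% of all genes tested. The ligand gene Jag1 had 3.0, 4.02, 4.86 and 4.94 in NPC1, against 6.26, 6.56, 5.91 and 6.69 in aNSC (log2 -2.15 ± 0.526 SE, limma adjusted p = 0.00649). The groups were apart, with a wide spread among NPC1 libraries. The fringe glycosyltransferase gene Lfng fell by 1.65 and the ligand-like gene Dner by 0.71, and Rfng rose by 0.39. Of these, only the call of Jag1 held without NPC1 replicate 1 (adjusted p = 0.0429), and it was lost when aNSC replicate 1 was left out as well (0.0651). Dll1 differed by -0.95, and the Notch inhibitors Numb and Numbl by -0.07 and 0.06, without passing.

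EGF and FGF signalling genes moved downwards where they moved. Of 19 tested, 7 were called lower and none higher (median -0.8), against 9 lower and none higher at an unadjusted p under 0.05, and 11 lower and 1 higher when only NPC1 and aNSC were fitted. Beside Egfr, the FGF receptor genes Fgfr1 and Fgfr3 fell by 1.07 and 1.6. Etv5, an ETS factor induced by ERK signalling, had 4.83, 5.39, 5.51 and 5.85 in NPC1, against 6.87, 7.12, 7.22 and 7.37 in aNSC. The groups did not overlap and NPC1 was 3.36-fold lower (limma adjusted p = 1.71e-07). The feedback inhibitor genes Spry2 and Spred1 fell by 1.2 and 0.89, and Etv4 by 2.8 at low levels. Erbb4, a neuregulin receptor of migrating neuroblasts, differed by 0.59 and Dusp6 by -0.2, and neither passed. There were 4 called lower without NPC1 replicate 1, and Fgfr1 was not among them (adjusted p = 0.0858).

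Of 13 genes of BMP signalling, which favours quiescence, 3 were lower in NPC1, against 7.29% of all genes tested. The receptor genes Bmpr1a and Bmpr1b fell by 0.8 and 2.39, and the extracellular antagonist gene Chrdl1 by 3.13. The Id genes, direct BMP targets, did not pass: Id1 differed by -0.75, Id2 by -0.07, Id3 by -1.34 and Id4 by -0.27. The count stayed at 3 lower without NPC1 replicate 1 and was 5 without aNSC replicate 1.

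**Figure D3:**
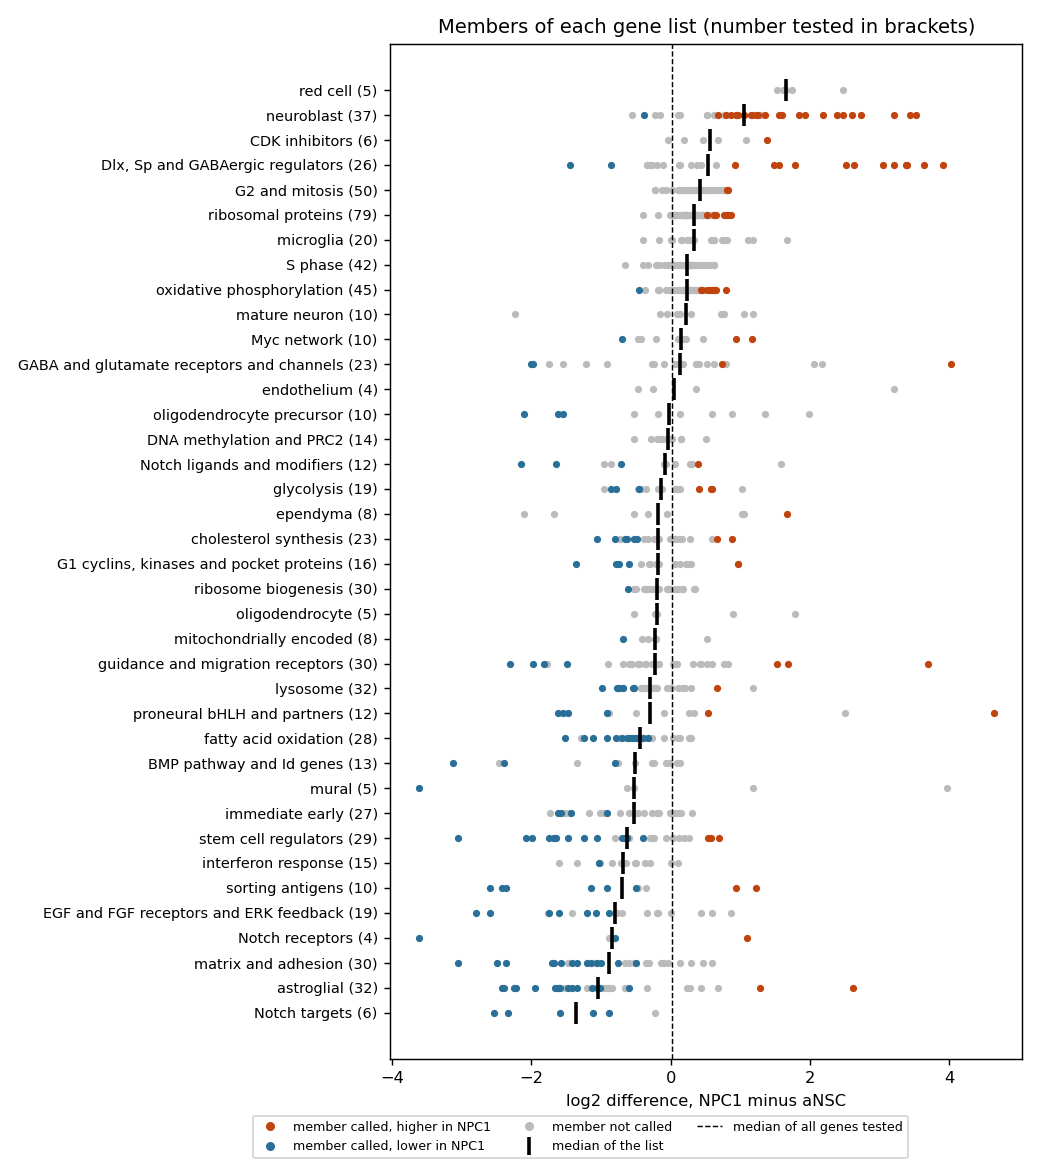
Log2 difference (NPC1 minus aNSC, horizontal axis) of every tested member of 38 gene lists (vertical axis, number tested in brackets). Orange and blue points are members called higher and lower in NPC1, grey points members not called, the black tick is the list's median and the dashed line the median of all genes tested (0.02). Notch target, astroglial and matrix lists lie at the lower end, and neuroblast and Dlx lists hold the most members called higher (23 and 12).

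Of 12 proneural factors and partners tested, 4 fell and 2 rose, against 7.29% and 7.18% of all genes tested. The decreases included those of Olig1, Olig2 and Btg2, an antiproliferative gene of neurogenic divisions, and none of these 3 was called without NPC1 replicate 1. Leaving out aNSC replicate 2 or 4 left 2 decreases. Neurod6 was called higher, with -0.88 to 1.14 in NPC1 against -4.97 to -2.99 in aNSC, but at levels where 3 aNSC libraries were at the floor. Its call was lost when values below 0 were set to 0 (adjusted p = 0.311).

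Dlx genes and the interneuron programme were higher in NPC1. Of 26 genes tested, 12 were called higher and 2 lower (median 0.54), and 11 and 1 without NPC1 replicate 1. Dlx2 had 11.15, 10.97, 10.97 and 11.03 in NPC1, against 9.79, 9.25, 9.43 and 9.41 in aNSC. The NPC1 libraries lay close together and more than a log2 unit above aNSC, 2.95-fold higher (limma adjusted p = 3.66e-05). Its cluster partner Dlx1 rose by 1.48. Dlx5 had 6.15, 5.02, 5.86 and 5.82 in NPC1, against 3.02, 2.11, 2.82 and 2.07 in aNSC, 9.24-fold higher. The neighbouring genes Dlx6 and Dlx6os1, which overlap on opposite strands, rose by 3.64 and 3.4.

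The zinc finger genes Sp8 and Sp9, which olfactory bulb interneurons need, rose by 3.91 and 3.38. Sp9 had 8.38, 7.11, 8.16 and 8.27 in NPC1, against 5.07, 4.44, 4.65 and 4.22 in aNSC. NPC1 replicate 2 was the lowest of its group and still above every aNSC library. The GABA synthesis genes Gad1 and Gad2 rose by 2.52 and 2.63, and the vesicular GABA transporter gene Slc32a1 by 3.05 at low levels. Foxp4 and Six3 fell by 1.44 and 0.86. The ventral progenitor genes Gsx1 and Gsx2 differed by -0.28 and 0.38, Meis2 by 0.29 and Etv1 by 0.43, and none passed.

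Neuroblast genes rose in the largest share of any list described here. Of 37 tested, 23 were called higher and 1, the microtubule-associated protein gene Mapt, lower by 0.38 (median 1.06). Leaving out NPC1 replicate 1 gave 20 higher and none lower. Dcx, the microtubule protein that marks migrating neuroblasts, had 7.26, 6.38, 6.06 and 5.96 in NPC1, against 4.29, 3.43, 4.33 and 4.05 in aNSC (log2 2.39 ± 0.32 SE, limma adjusted p = 1.28e-05). NPC1 replicate 1 was the highest, and the difference without it was 2.11. Stmn2, a tubulin regulator of growing neurites, had 7.14, 5.84, 5.36 and 5.44 in NPC1, against 2.11, 2.88, 2.35 and 2.37 in aNSC, 11.5-fold higher (limma adjusted p = 9.65e-07). The gap between the groups exceeded the spread within either.

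Igfbpl1 rose by 3.44, Stmn4 by 2.74, the RNA-binding protein genes Celf4 and Elavl4 by 2.47 and 1.6, and the neuronal tubulin gene Tubb3 by 2.19. The growth cone gene Gap43 rose by 1.93 and Nrep by 1.84. Nrxn3, a presynaptic adhesion gene, had 8.2, 7.09, 7.2 and 7.06 in NPC1, against 4.98, 4.86, 5.17 and 4.11 in aNSC. Its NPC1 replicate 1 was again highest and the groups did not overlap. Sox4 rose by 0.68, and its relative Sox11 differed by 0.63 without passing. Robo1, Elavl2 and Dclk1 differed by -0.56, 0.1 and -0.23 and were not called. Summed over the list, the linear level was 24600, 22000, 23000 and 22500 in NPC1, against 12400, 11200, 12700 and 10900 in aNSC.

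The largest increase among genes with a level of at least 5 in NPC1 was that of St18, a zinc finger factor of the Myt family, with 6.82, 5.31, 5.12 and 5.33 in NPC1, against 0.68, 1.67, 0.22 and 1.22 in aNSC. It was 26-fold higher (log2 4.7 ± 0.702 SE, limma adjusted p = 5.04e-05; 4.31 without NPC1 replicate 1). Bcl11b, a zinc finger factor of striatal and other neurons, rose by 2.72. Among named genes with a mean of at least 5 in aNSC, the largest decrease was that of Tnfrsf19 (TROY). This Wnt target, a receptor of the TNF receptor superfamily, had 5.17, 6.8, 6.68 and 7.05 in NPC1, against 9.32, 10.07, 9.89 and 10.05 in aNSC. It was 10.6-fold lower (limma adjusted p = 2.91e-07), and the log2 difference was -2.99 without NPC1 replicate 1.

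Notum, a secreted enzyme that inactivates Wnt proteins, had 2.17, 4.28, 4.89 and 5.0 in NPC1, against 6.56, 7.65, 7.56 and 7.52 in aNSC (log2 -3.24 ± 0.424 SE, limma adjusted p = 1.04e-05). Replicate 1 was lowest in both groups. The overlapping antisense model Myadml2os differed by -3.31, with reads that cannot be told apart from those of Notum. Other large decreases were those of the GABA transporter gene Slc6a11 (-2.74), Adhfe1 (-2.62), Itih3 (-2.61) and the protease genes Prss23 and Prss56 (both -2.59).

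Transcripts of DNA replication did not pass, and those of mitosis did so in few cases. Of 42 genes of S phase, 0 were called by limma over the 28 libraries (median 0.24). At an unadjusted p under 0.05, 1 was higher and 2 were lower, against 4410 of all 15861 genes tested in either direction. When NPC1 and aNSC were fitted alone, 15 were called higher and 3 lower, against 2661 and 2419 of all genes tested. The replication licensing gene Mcm5 differed by 0.3 and the sliding clamp gene Pcna by 0.03. Of 50 genes of G2 and mitosis, 2 were called higher, namely Cdca8 (0.83) and Birc5 (0.81), both subunits of the chromosomal passenger complex (median 0.42). In the fit of NPC1 and aNSC alone, 32 were called higher and 0 lower. The pNSC libraries, which enter the fit over 28 libraries, were uneven for both lists. Their summed linear level ran from 1700 to 5300 for S phase and from 1500 to 4020 for G2 and mitosis. Birc5 was not called without NPC1 replicate 1 (adjusted p = 0.0851). The count was 1 without NPC1 replicate 1, 2 or 3 or aNSC replicate 2 or 4, and 0 without both first replicates.

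Mki67, which cycling cells transcribe, had 8.63, 8.44, 7.8 and 7.88 in NPC1, against 7.93, 8.08, 8.0 and 8.09 in aNSC. The groups overlapped, with a difference of 0.16 ± 0.323 SE that did not pass (limma adjusted p = 0.801). In the summed linear level, G2 and mitosis genes had 11000 to 12100 in NPC1, against 8520 to 8910 in aNSC. For S phase genes these sums were 13400 to 15100 in NPC1, against 12100 to 13600 in aNSC. The sums of mitotic genes did not overlap between groups and those of S phase genes did.

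The regulators of G1 changed in unequal ways. Ccnd2, the D-type cyclin of neuronal progenitors, had 13.02, 13.26, 13.26 and 13.26 in NPC1, against 12.12, 12.12, 12.55 and 12.12 in aNSC (log2 0.97 ± 0.249 SE, limma adjusted p = 0.00898). It was the highest gene of NPC1 libraries 2 to 4, where 13.26 is the highest value in every library of the table, so the difference is limited by the scale. Ccnd1 fell by 1.36 and Ccnd3 by 0.59, the pocket protein gene Rbl2 by 0.74 and the repressive E2F gene E2f5 by 0.79. Ccnd1 was not called without NPC1 replicate 1 (adjusted p = 0.0713). Of 6 CDK inhibitor genes tested, Cdkn2d (p19INK4d) changed: it had 6.48, 6.38, 6.54 and 6.06 in NPC1, against 5.04, 4.84, 5.07 and 4.95 in aNSC. It was 2.62-fold higher with no overlap (limma adjusted p = 1.47e-06).

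Cdkn1a (p21), Cdkn1b (p27) and Cdkn1c (p57) differed by 0.19, -0.03 and 0.46 and were not called. For Cdkn1b the NPC1 libraries were split, with 6.44 and 5.89 in replicates 1 and 2 and 5.02 and 4.98 in replicates 3 and 4, against 5.51 to 5.69 in aNSC. Within the Myc network, Myc rose by 0.94 and its antagonist Mxd3 by 1.17, and Mycn fell by 0.7. Of these 3, Myc alone was called without NPC1 replicate 1 (adjusted p = 0.045).

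Metabolic lists differed in direction. Of 28 genes of fatty acid oxidation, which adult neural stem cells use, 13 were called lower in NPC1 and none higher (median -0.44), against 16 lower and none higher at an unadjusted p under 0.05. With NPC1 and aNSC fitted alone, 15 were lower and none higher. Cpt1a, which admits fatty acids to mitochondria, had 3.05, 3.74, 3.5 and 3.72 in NPC1, against 4.76, 5.29, 4.94 and 5.06 in aNSC, 2.85-fold lower (limma adjusted p = 0.000122). The groups lay about a log2 unit apart at their nearest libraries. Acadl and Hadh, enzymes of the oxidation cycle, fell by 1.12 and 0.78, and Acsbg1, an acyl-CoA synthetase gene of astrocytes, by 1.24. The count was 7 without NPC1 replicate 1, aNSC replicate 2 or aNSC replicate 3, 8 without aNSC replicate 4 or NPC1 replicate 3, and 6 without both first replicates.

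Of 45 nuclear genes of oxidative phosphorylation, 8 were higher, among them the cytochrome oxidase subunit gene Cox6a1 (0.8), and 1, Sdha, was lower (-0.45), with a median of 0.23. Their count of increases was 2 without NPC1 replicate 1, 3 without aNSC replicate 2, 4 without aNSC replicate 4, 5 without NPC1 replicate 2 or 3 and 13 without NPC1 replicate 4. Of 19 glycolysis genes, Eno1, Gapdh and Pfkl rose by 0.6, 0.58 and 0.41, and Ldha, Aldoa and Ldhb fell by 0.85, 0.79 and 0.45. These 3 each way stand beside 7.18% and 7.29% of all genes tested. Gapdh and Ldhb were not called without NPC1 replicate 1 (adjusted p = 0.0697 and 0.101). Of 23 cholesterol synthesis genes, 6 fell, with Hmgcs1, the enzyme before the rate-limiting step, at -1.06, and 2 rose. Leaving out NPC1 replicate 1 gave 3 decreases and 0 increases, and aNSC replicate 4 gave 5 and 0.

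Of 79 cytosolic ribosomal protein genes, 7 were higher, against 7.18% of all genes tested, and none lower (median 0.34), with differences of 0.52 to 0.87. There were 2 without NPC1 replicate 1 or aNSC replicate 2, 3 without NPC1 replicate 2, 4 without NPC1 replicate 3 or aNSC replicate 4, and in the fit of NPC1 and aNSC alone 37 higher and 1 lower. Of 30 ribosome biogenesis genes, 1 passed, Dkc1 at -0.61. Of 32 lysosomal genes, 7 fell and 1 rose, against 7.29% and 7.18% of all genes tested. Lamp2, a lysosomal membrane protein, had 6.55, 6.46, 6.34 and 6.5 in NPC1, against 7.39, 7.52, 7.45 and 7.4 in aNSC, with little spread in either group (limma adjusted p = 3.46e-06). The cathepsin gene Ctsb fell by 0.74.

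Extracellular matrix and adhesion genes fell where they changed. Of 30 tested, 14 were called lower and none higher (median -0.88), against 19 lower and none higher at an unadjusted p under 0.05, and 16 lower and 1 higher in the fit of NPC1 and aNSC alone. There were 8 lower without NPC1 replicate 1 or without aNSC replicate 2. The proteoglycan gene Cspg5 had 4.03, 6.17, 6.36 and 6.38 in NPC1, against 7.5, 8.56, 8.38 and 8.46 in aNSC. Replicate 1 was lowest in both groups, and the difference was -2.49 with it and -1.92 without NPC1 replicate 1. Tnc (tenascin C), a matrix protein of the niche, fell by 3.05 at low levels, and the integrin and laminin genes Itgav and Lamb2 by 1.42 and 1.7.

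Of 30 guidance and migration genes, 4 fell and 3 rose, against 7.29% and 7.18% of all genes tested. The Slit2, Sema6a, Ephb1 and Unc5a genes fell by 1.49, 1.82, 1.97 and 2.3. Dcc, a netrin receptor, rose by 1.69, Sema3c by 3.7 and St8sia2, which builds the polysialic acid of neuroblasts, by 1.53. With NPC1 replicate 1 left out there were 3 decreases and 1 increase, and Unc5a was not called (adjusted p = 0.0561).

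Of 27 immediate early genes, which respond to stimulation and also to tissue dissociation, 4 fell in NPC1 and none rose. Of all genes tested, 7.29% were called lower. The list counts were 9 and none at an unadjusted p under 0.05, and 11 and none in the fit of NPC1 and aNSC alone. Fos had 9.95, 10.58, 9.65 and 9.98 in NPC1, against 11.87, 11.99, 10.81 and 11.22 in aNSC. Nr4a1, Btg2 and Zfp36 fell by 1.62, 0.92 and 1.58. There was 1 call, that of Nr4a1, without NPC1 replicate 1, where the adjusted p of Fos was 0.0612. There was also 1 call without NPC1 replicate 3 or aNSC replicate 1 or 2. Of 14 genes of DNA methylation and Polycomb repressive complex 2, 0 were called by limma, with 1 higher and 2 lower at an unadjusted p under 0.05 and 1 in each direction in the fit of NPC1 and aNSC alone.

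Among transmitter receptor genes, 2 of 23 rose and 2 fell, near the 7.18% and 7.29% of all genes tested. The GABA receptor subunit gene Gabrb2 rose by 4.03, with 2.0 to 4.72 over the alternatives tried, and its mean was too low for a stricter filter on level. The glutamate receptor subunit gene Gria2 rose by 0.74, and Gabrg1 and the metabotropic receptor gene Grm3 fell by 2.01 and 1.98. Gria2 was not called without NPC1 replicate 1 or 2 or aNSC replicate 1 or 3 (adjusted p = 0.143, 0.0977, 0.131 and 0.101), nor in the fit of NPC1 and aNSC alone (0.0808). Gabrb2 was not called without aNSC replicate 3 or 4 (0.0816 and 0.0523), and Gabrg1 not without NPC1 replicate 1 (0.0589). The list had 0 higher and 2 lower without aNSC replicate 3, where Gria2 and Gabrb2 were both lost, and 1 in each direction without NPC1 replicate 1. Of 15 interferon response genes only Irf1 was called, at -1.03, and of 8 mitochondrially encoded genes only mt-Nd2, at -0.68. These counts stand beside the 7.29% of all genes tested that were called lower. The call of mt-Nd2 was lost without NPC1 replicate 3.

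Markers of cell types outside this lineage were called in few cases. Of 20 microglial genes tested, 0 were called by limma, with 1 in each direction at an unadjusted p under 0.05 and 1 in each direction in the fit of NPC1 and aNSC alone, and the summed linear level was 347 to 446 in NPC1, against 309 to 485 in aNSC. Most endothelial markers were under the filter, Pecam1 and Cdh5 among them, and the list summed to 5.72 to 22.8 in NPC1, against 10.2 to 19.3 in aNSC. Markers of oligodendrocytes summed to 199 to 250 in NPC1, against 212 to 265 in aNSC, with Mog, Mag and Mobp under the filter. Those of mature neurons summed to 86.4 to 131 in NPC1, against 66.3 to 99.5 in aNSC, ependymal ones to 37.4 to 57.0 in NPC1, against 38.0 to 60.4 in aNSC, and red cell ones to 1.92 to 55.0 in NPC1, against 0.805 to 23.5 in aNSC. The ranges overlapped in each of these. Of the 4 endothelial, 5 oligodendrocyte, 10 mature neuron and 5 red cell markers tested, 0 were called by limma, with 4 higher and 2 lower at an unadjusted p under 0.05 and 1 in each direction in the fit of NPC1 and aNSC alone. Of 5 mural and 8 ependymal markers 1 each was called, Notch3 lower and Mia higher, and Mia was not called without NPC1 replicate 1 or 2 or aNSC replicate 1 or 4. The part of such cells in the results was not tested.

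The oligodendrocyte lineage factors Olig1, Olig2 and Nkx2-2 were lower in NPC1, the 3 calls among 10 tested precursor markers, while the defining receptor gene Pdgfra (0.6) did not pass and Sox10 was under the filter. Nkx2-2 had -0.45, -0.99, 0.0 and 1.02 in NPC1, against 1.99, 1.65, 2.15 and 2.23 in aNSC, at levels near the filter and with no overlap. The summed linear level of the precursor markers was 94.2 to 115 in NPC1, against 142 to 212 in aNSC, without overlap. The call of Nkx2-2 held without NPC1 replicate 1 (adjusted p = 0.0191), and those of Olig1 and Olig2 did not (0.118 and 0.0646).

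To place the changes, the genes called between NPC1 and aNSC were followed through the freshly sorted populations in labelled order. The median level of the 1157 genes lower in NPC1, averaged over libraries, was 6.64 in qNSC, 6.49 in pNSC, 5.94 in aNSC, 5.04 in NPC1, 5.16 in NPC2, 4.67 in NB1 and 4.41 in NB2. That of the 1139 genes higher in NPC1 was 4.78 in qNSC, 4.90 in pNSC, 4.87 in aNSC, 5.69 in NPC1, 5.54 in NPC2, 5.97 in NB1 and 6.0 in NB2. Since the genes were chosen on NPC1 and aNSC, these levels are a description, and the choice favours NPC1 lying beyond NPC2. The mean of NPC2 lay between those of NPC1 and aNSC for 679 of the genes higher and 762 of the genes lower in NPC1.

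Egfr did not follow that order: its mean was 7.03 in qNSC, 7.57 in pNSC, 9.76 in aNSC, 7.17 in NPC1, 8.51 in NPC2, 5.53 in NB1 and 3.73 in NB2. Some genes higher in NPC1 had a lower mean in aNSC than in pNSC. The 3 given here are examples, and such genes were not counted. Stmn2 had means of 4.38 in qNSC, 5.67 in pNSC, 2.43 in aNSC and 5.95 in NPC1, and Dcx of 3.42, 5.29, 4.02 and 6.42 in the same order. St18 had 1.54 in qNSC, 4.17 in pNSC, 0.95 in aNSC and 5.65 in NPC1. The differences between pNSC and aNSC are given as levels only. The pNSC libraries were uneven: the neuroblast list summed to 9720 in pNSC replicate 1, against 4860, 5210 and 4080 in the other pNSC libraries.

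**Figure D4:**
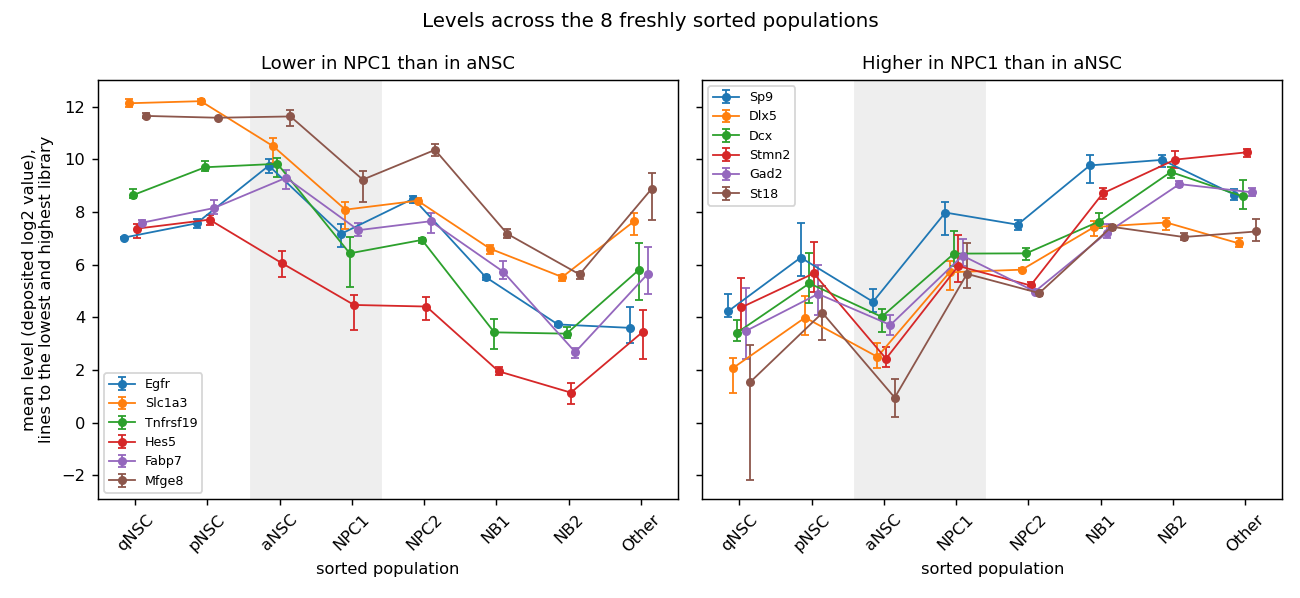
Mean log2 level (points, vertical axis) of 6 genes lower and 6 genes higher in NPC1 than in aNSC across the 8 freshly sorted populations (horizontal axis), with lines to the lowest and highest library. The shaded band marks aNSC and NPC1. Egfr, Tnfrsf19 and Mfge8 have a higher mean in NPC2 than in NPC1, and Stmn2, Dcx and St18 a lower mean in aNSC than in pNSC.

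NPC1 was also tested against the equally weighted mean of its labelled neighbours aNSC and NPC2 (3 libraries, the second population labelled as progenitors). A gene can pass this test where NPC1 and NPC2 are alike and both differ from aNSC, so passing it does not set NPC1 apart from both. This comparison shares the NPC1 and aNSC libraries with the one above and so is no independent support for it. Of 15995 genes tested, 631 were called, 3.94%, with 314 higher and 317 lower in NPC1. Of these, 167 of the higher and 132 of the lower genes also had every NPC1 library above or below every library of both neighbours. With NPC1 replicate 1 left out the count was 242, without it and aNSC replicate 1 it was 200, and without NPC1 replicate 2 it was 397. The fit of the 3 populations alone called 2539.

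Among genes with every NPC1 library below both neighbours and a level of at least 5, Egfr had the largest difference from the neighbours' mean. It had 6.69 to 7.54 in NPC1, against 9.48 to 10 in aNSC and 8.33 to 8.61 in NPC2 (log2 -1.96 ± 0.176 SE, limma adjusted p = 4.37e-07), and it was called under every alternative tried. Mfge8, a secreted bridging protein of niche astrocytes, had 8.39 to 9.55 in NPC1, against 11.26 to 11.87 in aNSC and 10.11 to 10.58 in NPC2 (log2 -1.76 ± 0.241 SE, limma adjusted p = 0.000134). Tmem132b, Ampd3, an AMP deaminase gene, and Zcchc24 differed by -1.8, -1.68 and -1.73. Olfm2 had 4.84 to 5.43 in NPC1, against 6.41 to 7.05 in aNSC and 6.66 to 6.93 in NPC2 (log2 -1.55). The call of Zcchc24 was lost without NPC1 replicate 1 (adjusted p = 0.0805), and that of Olfm2 without it and aNSC replicate 1 together (0.0645).

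Among the genes above both neighbours, Gad2 had 5.96 to 6.97 in NPC1, against 3.31 to 4.08 in aNSC and 4.97 to 4.98 in NPC2 (log2 2.0 ± 0.351 SE, limma adjusted p = 0.00152). Nrxn3 differed by 1.72 and Cd1d1, a lipid antigen-presenting molecule, by 1.22. Gramd1a, a sterol transfer protein gene, had 7.47 to 7.84 in NPC1, against 6.34 to 7.32 in aNSC and 6.08 to 6.24 in NPC2. Clasrp, a splicing-related gene, had 6.23 to 6.31 in NPC1, against 4.94 to 5.77 in aNSC and 4.45 to 5.12 in NPC2, the narrowest NPC1 range of these genes. St18 differed by 2.71 from the neighbours' mean, with 5.12 to 6.82 in NPC1, against 0.22 to 1.67 in aNSC and 4.82 to 5.04 in NPC2. It thus lay close to NPC2 and far from aNSC. Its call was lost without NPC1 replicate 1 (limma adjusted p = 0.0866).

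Most neuroblast, Dlx and GABAergic genes called above the neighbours' mean overlapped NPC2. Of 37 neuroblast genes, 14 were called above that mean, against 1.96% of all genes tested, but 3 of them (Elavl3, Elavl4 and Nrxn3) had every NPC1 library above both neighbours. Of 26 Dlx and GABAergic genes, 9 were called above it, and 2 of these (Gad1 and Gad2) were above both. Dcx had means of 6.42 in NPC1, 4.02 in aNSC and 6.43 in NPC2, and Dlx5 of 5.71 in NPC1, 2.5 in aNSC and 5.81 in NPC2. Of 19 EGF and FGF signalling genes, 3 were called below the mean, against 1.98% of all genes tested, and Egfr and Spry2 but not Etv5 were below both neighbours in every library. Of 12 proneural genes, 3 were called above the mean (Neurog2, Neurod6 and Tcf4) and 2 below it (Olig2 among them). Of 6 Notch targets, Nrarp was called below it. Nrarp had means of 5.94 in NPC1, 6.84 in aNSC and 6.54 in NPC2. Hes5 had means of 4.47 in NPC1, 6.06 in aNSC and 4.41 in NPC2.

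**Figure D5:**
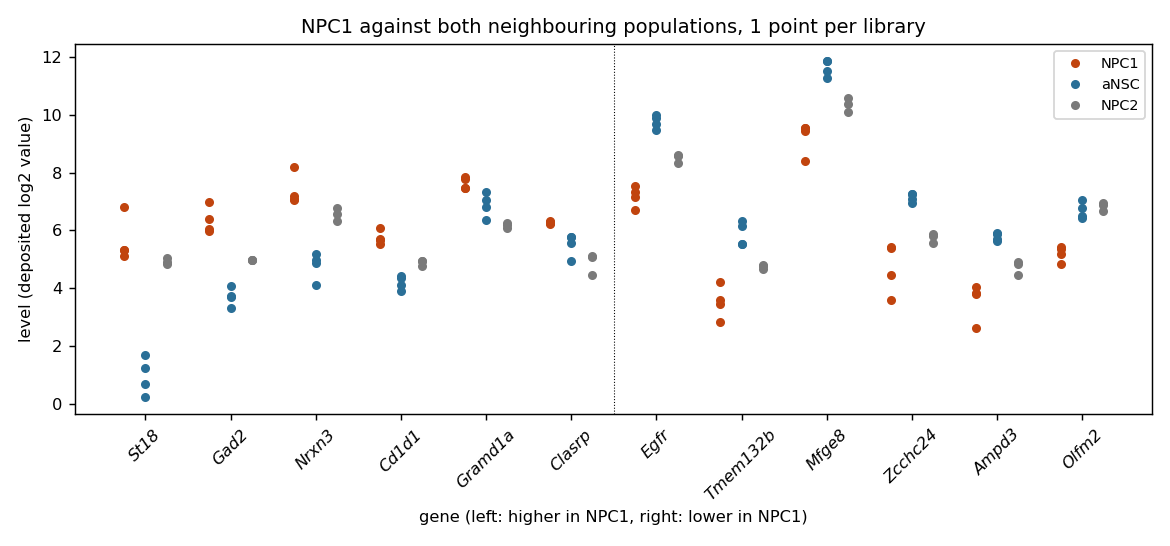
Log2 level (vertical axis) of 12 genes, 1 point per library, for NPC1 (orange, 4 libraries), aNSC (blue, 4) and NPC2 (grey, 3). They are the 6 each way farthest in NPC1 from the mean of aNSC and NPC2, among called genes that overlapped neither. Some lie close to 1 of the neighbours. The 6 genes left of the dotted line have every NPC1 library above both other groups, and the 6 right of it every NPC1 library below both.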

How the data were processed

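Libraries of poly(A) RNA were prepared with SMARTer Ultra Low and Nextera XT kits and run on a NextSeq instrument, per the labels' protocols. Tools listed in the submitters' processing notes are limma, featureCounts, HISAT2, Trimmomatic, cutadapt and FastQC, with mm10 and GRCm38 as builds and no versions or order. The deposited table holds log2 values of 36 libraries for 19909 genes with Ensembl identifiers, made by the authors. Its header names no unit. The linear column sums lie near those of CPM, and all columns share 1 distribution, as quantile normalization would leave, so levels follow ranks. The sources used here do not state earlier filters. Since 23 gene symbols had become dates, genes were followed by identifier.

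A linear model with 1 mean for each of 8 populations was fitted with limma 3.58.1 (R 4.3.3; moderated variances that follow a robust trend with level) to the 28 freshly sorted libraries, a procedure tested on simulated data. Coordinates and overlaps came from GENCODE M21 (19863 identifiers matched) and promoters from RefSeq (GRCm38.p6). Of 38 gene lists (847 symbols), members with a value of at least 0 in 3 libraries of either group were tested: 794 of 888 list entries. The members and lists were chosen with earlier results of these data known. Named genes were antigens and regulators chosen by name, the 10 largest changes each way with a mean of at least 5 and no overlap, up to 5 called members of each list with the smallest p, and the 6 farthest each way from the mean of aNSC and NPC2 that overlapped neither. Further list members are named with their values, and results of some genes are not reported here. Summed levels are sums of 2 raised to the deposited log2 values.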

Additional observations from a re-analysis of the deposited data

Results flagged for a closer look

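Among the genes named by rule, the 4 libraries of a group were searched for 1 far from the other 3 (Dixon's criterion). Of 278 such groups, 30 held one, where chance at 5% gives about 14. Of the 30, 16 were NPC1 replicate 1 and 10 aNSC replicate 1. The genes are not independent, and the cause was not tested.

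NPC1 replicate 1 was low, on the log2 scale, for Slc1a3 (7.34), Hes5 (3.53), Mlc1 (5.1), Hes1 (-0.6), Bmpr1b (0.69), Unc5a (-1.31), Zfp36 (3.88), Ctsb (7.38), Cspg5 (4.03), Olig1 (3.55), Mfge8 (8.39), Ampd3 (2.62) and Ccnd2 (13.02). It was high for St18 (6.82), Nrxn3 (8.2) and Dlx6os1 (9.06). In aNSC, replicate 1 was low for Myadml2os (5.76), Notum (6.56), Ndrg2 (8.73), Mlc1 (7.44), Hey2 (2.02), Acsbg1 (7.12) and Grm3 (4.46). It was high for Cdkn1a (6.42), Stmn4 (3.32) and Gapdh (5.5).

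Elsewhere, NPC1 replicate 2 was high for E2f5 (5.45) and Ldha (7.4), aNSC replicate 3 for Ccnd2 (12.55) and aNSC replicate 2 for Neurod6 (-2.99), where the others were at their floor. For Ccnd2 the other 3 libraries of each group held equal values (13.26 in NPC1 and 12.12 in aNSC), as ranks on a shared distribution leave, so its criterion is met by small differences in rank.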

How the results depend on the processing

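The count of genes called between NPC1 and aNSC (2296) was 5080 when only the compared groups were fitted, 6284 with library weights, 5232 with the replicate block and only the compared groups, and 1231 without NPC1 replicate 1 and aNSC replicate 1 together, an alternative chosen after seeing the data. Leaving out 1 library gave 1369 to 2137. For NPC1 against the mean of aNSC and NPC2 (631) the same settings gave 2539, 3708, 2628 and 200, and leaving out 1 library 242 to 582. The fits with fewer libraries or weights use another estimate of the spread. Of the 2296 genes, 2272 were also called with only the compared groups. Of 131 named genes, 126 were called, 85 of them in every alternative in which they were tested (18 or 19, since a stricter filter leaves out low genes). Reversed signs occurred in 2 genes that were not called: Mki67 was -0.05 with library weights and ran from -0.02 (without both first replicates) to 0.29 (without NPC1 replicate 3) over the fits with libraries left out, and Cdkn1b ran from -0.34 (without both first replicates) to 0.17 (without NPC1 replicate 4), with 0.16 without NPC1 replicate 3 and 0.0 without aNSC replicate 4. The replicate block alone gave 2400 and 741 calls. Same-numbered NPC1 and aNSC libraries correlated, as deviations from group means, at 0.224, 0.072, 0.006 and 0.113, and not every library correlated best with its own number, so the numbers were not taken as pairs. Depth limits genes near the floor: 41 called genes had a library at its floor, and their size depends on where it lies.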

Other observations

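Further gene families, chosen after their values were seen and so given as a description with no test of the family, also differed between NPC1 and aNSC. All 14 models of the clustered protocadherin alpha genes on chromosome 18, cell surface proteins of neuronal self-recognition, were called higher in NPC1, by 1.5 to 1.73 on the log2 scale. These models share constant exons, so they may hold the same reads and do not count as 14 observations. The 19 protocadherin beta genes differed by -0.88 to 1.76 (median 0.44) and the 22 gamma models by -0.43 to -0.26 (median -0.33). Of 7 neurexin and LRRTM genes, which encode partners across synapses, Lrrtm3 (3.62), Nrxn3 (2.61), Lrrtm1 (1.62) and Nrxn2 (1.06) were called higher.

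Wnt pathway genes differed in both directions. Of 6 Wnt ligand genes, Wnt10a was called higher and Wnt7b and Wnt7a lower. Wnt10a had 2.31 to 2.77 in NPC1, against -2.99 to 0.03 in aNSC, a difference of 3.73 at low levels (limma adjusted p = 0.00309). Wnt7a differed by -0.99. Wnt7b had 3.38, 4.41, 4.88 and 4.88 in NPC1, against 6.66, 7.05, 7.06 and 7.11 in aNSC (limma adjusted p = 3.5e-06). Of 16 antagonists and targets, 7 were called lower, among them Sfrp1 (-1.42), Dkk3 (-1.35), Nkd1 (-1.3) and Axin2 (-1.07). Of 12 Hippo pathway genes tested, 4 were called lower and 0 higher. These were the effectors Yap1 (-2.21) and Wwtr1 (-1.93), their partner Tead2 (-0.78) and their target Ccn1 (-2.31). The others were not called, with Ajuba at -2.03 and Tead1 at 0.2 among them. Of 28 replication-dependent histone genes, 11 were called higher. These messages mostly lack a poly(A) tail, which the library protocol selects for. Hist1h2ag had 9.22, 9.07, 9.11 and 8.39 in NPC1, against 6.95, 6.52, 7.29 and 6.39 in aNSC, and Hist1h2ah, a near-identical copy, had almost the same values. Such copies may hold the same reads, so the 11 calls may not be 11 separate observations.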
